A study of Mus musculus with 4 samples.

Results

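Giant coding sequences are taken here as the transcripts whose deposited coding length is 3200 codons or more. The members were chosen by that length and by a count of at least 60 ribosome footprints summed over the 4 libraries; among transcripts with identical counts in every library the first was kept, and 3 transcripts were left out by their identifiers. Of 63759 transcripts in the files, 46419 had a length and 138 reached 3200 codons. Of these, 57 fell below the count minimum, 6 repeated the counts of another transcript and 3 were those left out, which leaves 72 members. They run from 3205 to 7708 codons, with a median of 4368.5. Because isoforms of a gene carry similar counts, the 72 members were also put into 53 groups of neighbouring lines in the file. A group can hold more than 1 gene: Eppk1 shares that of Plec and is not kept at 1 per group. Summed counts and length chose the members, so their levels are given as a description.

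All 4 libraries came from wild-type C57BL/6 mouse embryonic fibroblasts, primary connective tissue cells, grown to confluence and synchronised with dexamethasone, a glucocorticoid that aligns circadian clocks. All were shifted from 35 °C to 38.5 °C at 24 h after dexamethasone. The 2 control libraries got no inhibitor, and the 2 wortmannin libraries came from cells given 17β-hydroxy wortmannin, an inhibitor of phosphatidylinositol 3-kinase (PI3K). The labels used here state no dose, and no group without the warm shift was analysed here. Cultured cells named only by strain and type are a model of confluent fibroblasts rather than of a tissue. The comparison asks how ribosomes are distributed over mRNAs after a warm shift when PI3K is inhibited. The design text speaks of separate experiments without tying libraries to them, so p-values measure the spread between these libraries.

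Ribosome footprints are the short mRNA pieces that a translating ribosome shields from nuclease, and their number on a coding sequence reflects both how much mRNA there is and how densely ribosomes occupy it. mRNA libraries were not analysed here, so these 2 parts were not separated, nor can fewer cells of a type be told apart from less RNA per cell. Giant proteins are mostly scaffolds and machines built from many repeated domains: linkers between cytoskeletal filaments, endocytic receptors, cadherins, basement membrane proteins, ubiquitin ligases, chromatin enzymes and motors. PI3K signals through Akt to mTORC1, a kinase complex that promotes translation, above all of mRNAs that begin with a pyrimidine tract, such as those of ribosomal proteins. At higher doses wortmannin also inhibits the PI3K-related kinases, of which several are themselves giant proteins.

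The files give transcript identifiers and lengths but no gene names. Deposited lengths were 9 codons shorter than complete GENCODE M21 coding sequences on GRCm38, the assembly of mm10: with this shift 94.5% of 1466 transcripts over 1500 codons had the length of an annotated one, against 59.1% to 64.1% with any other shift up to 20. A member took a gene's name where no other gene had that length and at least 0.5 of its neighbours in the file had lengths of genes within 1000000 bases, which named 49 members of 37 genes. A share of 0.3 named 62 members of 49 genes. The 12 genes named only at that share, with less certainty, are Macf1, Akap9, Wdfy3, Herc2, Smg1, Fat1, Dync2h1, Dmd, Utrn, Fat2, Lyst and Prkdc. The other 10 members carry no name.

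Footprints are short, so a giant made of near-identical repeats can give footprints that fit several places within itself. Each coding sequence of the 49 named genes was cut into windows of 30 bases on GRCm38. In 38 genes every window occurred once among all annotated coding genes, and in 45 genes at least 99% did. Ahnak, a scaffold protein under the plasma membrane, was an exception, with 29.9% of its windows repeated inside it. Its commonest repeated window occurred 14 times, most often 384 bases or 128 codons apart. Consecutive copies in its coding sequence on chromosome 19, plus strand of GRCm38, are shown because Ahnak holds the most footprints of all members; the capitals mark the 30 bases that the copies share exactly, followed by 30 bases in which they differ.
Ahnak copy 1, chr19:9011353-9011412, from codon 3334: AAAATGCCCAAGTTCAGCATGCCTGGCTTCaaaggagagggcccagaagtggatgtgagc
Ahnak copy 2, chr19:9011737-9011796, from codon 3462: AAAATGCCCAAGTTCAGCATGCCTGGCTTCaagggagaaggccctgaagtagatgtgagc
Ahnak copy 3, chr19:9012121-9012180, from codon 3590: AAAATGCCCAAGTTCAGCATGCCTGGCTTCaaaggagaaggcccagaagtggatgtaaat
Compared base by base without gaps over the whole repeat unit, the copy from codon 3462 was 96.61% identical to that from codon 3334, and the copy from codon 3590 was 67.19% identical. Eppk1, the intermediate filament linker epiplakin, had 31.8% of its windows repeated inside it, up to 4 times and 515 codons apart. Kmt2d, a histone H3 lysine 4 methyltransferase, had 1.08% of its windows also in other genes, and its commonest repeated window, from a run of glutamine codons, occurred 17 times at steps of 3 bases.
Eppk1 repeated window: acagccaccgtgtgcccgtggacgtggcct
Kmt2d repeated window: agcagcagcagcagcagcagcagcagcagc
No source used here says how footprints that fit several places were counted, so the levels of Ahnak and Eppk1 are the least certain among the named members.

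Since mTORC1 acts on mRNAs that start with a pyrimidine tract, the start sites of the members were read as well. RefSeq promoters (GRCm38.p6, 250 bases before to 50 after the start) were matched for 40 of the 49 named genes. The motif searched was a C at the start base followed by C or T up to a run of at least 5, on the sense strand only. It stood at a start of 1 of the 40 genes (2.5%), against 813 of 27025 genes in the table (3.01%) and 14 of 63 ribosomal protein genes (22.2%). The start sites of Smg1 and Srcap, whose rises were among the larger ones by fold, of Lrp1, which gained the most footprints relative to library total among members that rose, and of Dst, the gene with the motif, are shown from 40 bases before the start; capitals mark the start base or the pyrimidine run that begins there.
Smg1, chr7:118243618-118243677, minus strand: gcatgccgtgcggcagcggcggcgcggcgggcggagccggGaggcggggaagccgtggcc
Srcap, chr7:127511943-127512002, plus strand: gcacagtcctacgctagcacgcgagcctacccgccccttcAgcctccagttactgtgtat
Lrp1, chr10:127621129-127621188, minus strand: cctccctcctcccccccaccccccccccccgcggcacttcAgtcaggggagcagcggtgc
Dst, internal start, chr1:34160220-34160279, plus strand: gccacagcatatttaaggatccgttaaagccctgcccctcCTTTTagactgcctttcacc
Smg1, Srcap and Lrp1 begin with a purine at the annotated start, and another Dst start in the table begins with A. Kmt2d, which also rose, begins with a run of 22 pyrimidines, but its first base is T, so it lacks the motif as searched. The same holds for starts of Speg with runs of 5 and 7, and the change of Speg did not pass. A TATAAA box, searched on the sense strand in the 40 bases before the start, was found in 0 of the 40 genes and in 2.78% of all genes. Median GC content of the promoter window was 65.7% for members and 52.7% for all genes. A match or its absence in these annotated windows says nothing about which start these fibroblasts used.

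Library totals were 15376778 and 31110420 counts for controls and 7677780 and 7485868 with wortmannin, so the treated libraries were the shallower ones. Across all 72 members, isoforms with nearly the same counts included, log2 levels correlated at 0.997 between the control libraries and 0.991 between the wortmannin libraries. Over the 53 members at 1 per group, chi-square per degree of freedom between the libraries of a group was 4.20 without and 31.04 with wortmannin. Both values are above counting noise, and that of the treated group is far above it. Over 24253 and 21665 transcripts with distinct counts the values were 1.665 without and 6.885 with wortmannin. The larger spread of the treated pair was thus not confined to the members, and the part of depth in these values was not tested. Among fibroblast markers, Fn1, the matrix protein fibronectin, stood at 14850 to 20270 footprints in 1000000 counts of its library (CPM). It rose with wortmannin (log2 fold change 0.40, edgeR adjusted p = 0.0174). Fbn1, fibrillin, stood at 329.5 to 432.5 and did not pass (0.30, edgeR adjusted p = 0.0515). Col5a1, a collagen V chain, stood at 1449, 1478, 1512 and 1194, and Nid1, nidogen, fell from 118 and 115.5 to 73.7 and 73.2 (log2 fold change -0.67, edgeR adjusted p = 0.00106). Col6a3 and Fat1, also on that list, are members described below. Most giants that define other tissues were close to absent: titin (Ttn, striated muscle) had 16 counts over the 4 libraries, Ryr1 2, Bsn (synapse) 26, and Reln and Apob were listed at 0. Lrp2, listed as an epithelial marker, had 179 counts and is a member, as is the striated muscle kinase Speg with 451.

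The giants took a larger share of the footprints with wortmannin, and 1 gene dominated them in every library. Members held 1.41% and 1.36% of all counts in the control libraries (1.39% ± 0.0343, SD, n = 2) and 1.69% and 1.85% with wortmannin (1.77% ± 0.117, SD, n = 2). The groups do not overlap, and the lowest p that 2 against 2 libraries allow in an exact permutation test, two-sided, is 0.3333. With 1 transcript per group of neighbours the shares were 1.22% and 1.20% without and 1.46% and 1.56% with wortmannin. Of those counts Ahnak made up 39.3% and 39.7% in the control libraries and 35.2% and 33.1% with wortmannin. Leaving Ahnak out, the remaining giants held 0.742% and 0.723% of all counts in the controls and 0.948% and 1.05% with wortmannin.

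Levels of different giants were compared as CPM per 1000 codons, which removes the effect of length. Ahnak stood at 850 and 844 in the control libraries and at 911 and 916 with wortmannin. Lrp1, an endocytic receptor for proteases and lipoproteins, came next with 352, 336, 515 and 550 in the same order. Hspg2 (perlecan, a basement membrane proteoglycan), Col6a3 (a chain of collagen VI), Fat1 (an atypical cadherin) and Svep1 (a large matrix protein) followed, at 262 to 319, 202 to 413, 201 to 337 and 187 to 254 over the 4 libraries; these ranges overlap between neighbours in that order, but those of Hspg2 and Svep1 do not. Dync1h1, the heavy chain of cytoplasmic dynein, lay between 94.0 and 105, below all of these. At the other end stood Syne2, a nuclear envelope linker, at 0.173 to 0.455, and Fat2 at 0.141 to 0.554. Thus the most and the least occupied giants differed by more than 3 orders of magnitude, and the first 7 places were filled by surface, matrix, scaffold and motor proteins.

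**Figure D1:**
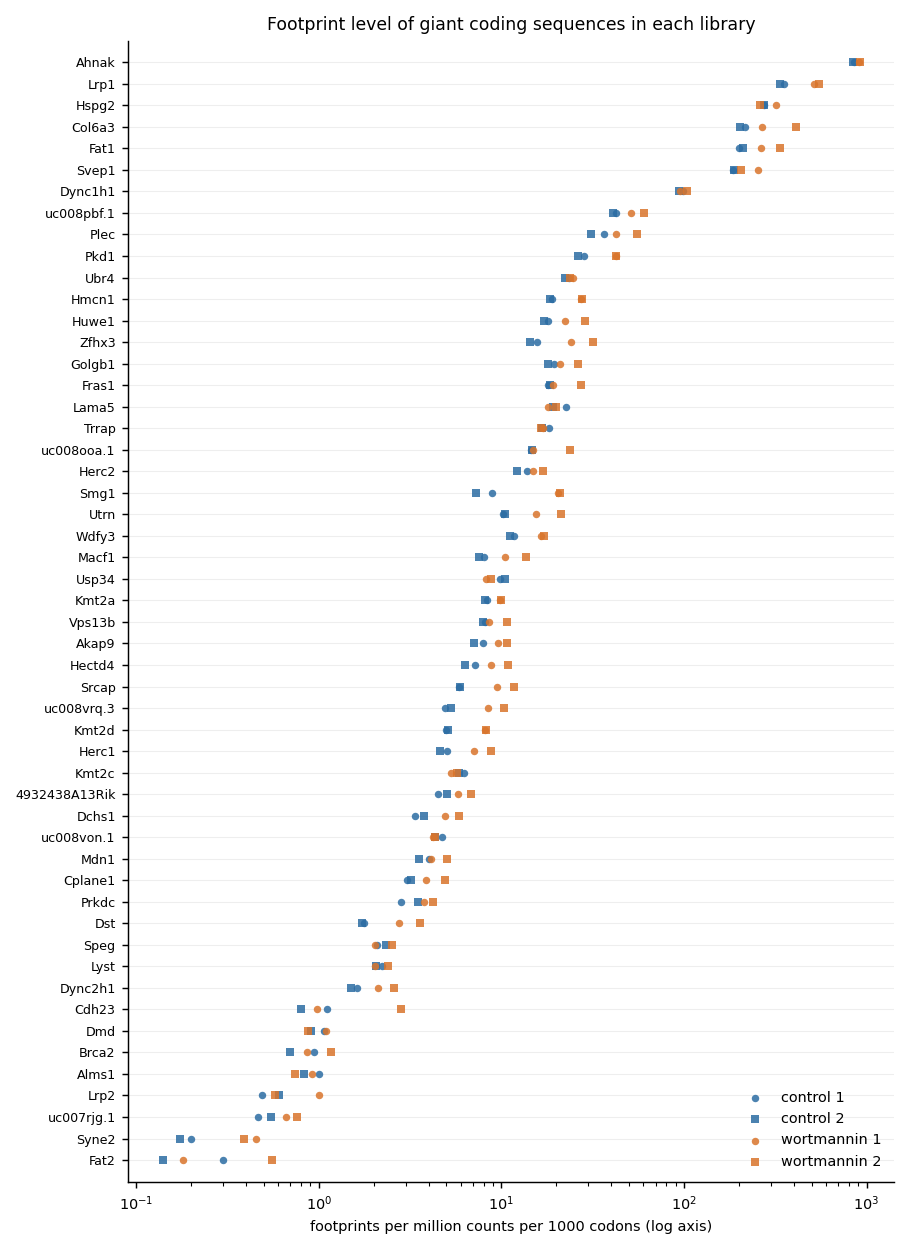
CPM per 1000 codons (log axis) of 52 of the 53 members kept at 1 per group of neighbouring transcripts; circles and squares are libraries 1 and 2, blue is control and orange wortmannin, and identifiers beginning with uc are members with no gene name. Ahnak stands highest in all 4 libraries, and the orange points of Smg1 lie apart from the blue ones.

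With wortmannin, footprints rose on many giants and fell significantly on none. Counts scaled to library totals were tested on all transcripts with edgeR's quasi-likelihood test, and a change was called at a Benjamini-Hochberg adjusted p under 0.05 over the 26602 transcripts tested. All 72 members passed the low-count filter. Footprints rose on 43 members (59.7%), where 14.7% of all tested transcripts rose, and fell on 0, where 19% of all tested transcripts fell; 29 did not pass. One member fell at an unadjusted p under 0.05, and DESeq2 called 36 higher and 0 lower. The median log2 fold change was 0.53, or 1.45-fold, over the members and -0.03 over all transcripts, and 65 of the 72 values were above 0. Counting 1 member per group of neighbours, 26 of 53 rose (49.1%) and 0 fell, and the median was 0.45, or 1.37-fold. Both wortmannin libraries lay above both controls for 56 of the 72 members, as for 31.9% of all tested transcripts, and below both for 4, as for 37%. Most rises were modest: 6 of the 72 members, or 4 of the 53, were over 2-fold, and both counts include Cdh23, which did not pass.

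**Figure D2:**
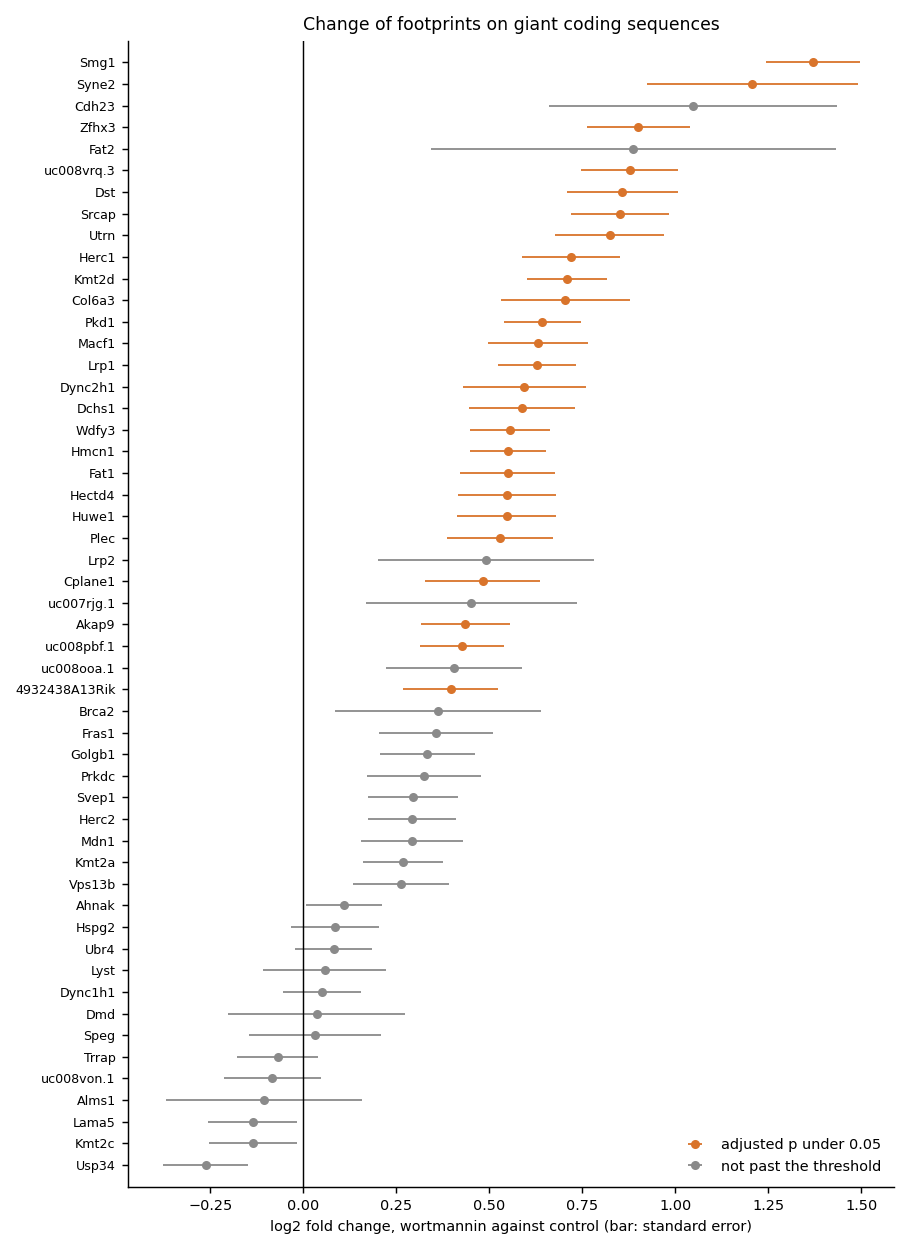
Log2 fold change with wortmannin against control, with its standard error, for the same 52 members in order of size; orange marks an edgeR adjusted p under 0.05 and grey the rest. Smg1 leads those drawn at 1.37, and Usp34 is lowest at -0.26.

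How many of these calls hold depended on which control library was kept. The number called higher among all tested transcripts moved too. It was smaller with either control library left out and larger without wortmannin library 1. The number of members that rose was 31 without control library 1 and 13 without control library 2, and 56 and 46 without wortmannin library 1 or 2; the median stayed between 0.34 and 0.70. Over 59 named genes and unnamed transcripts, 31 rose, and 11 of them also rose in each of 10 alternative settings, among them Smg1, Zfhx3, Dst, Srcap, Utrn, Kmt2d and Col6a3. Without control library 2 the remaining 20 did not pass. The 31 and the 11 include unnamed transcripts that share a group and nearly the same counts with another that is counted. They therefore hold fewer separate measurements. With a wortmannin library left out, the fit takes the lone treated library to vary like the controls, which lie much closer together. Calls gained then have no check from a second treated library. Without wortmannin library 1, 12 more were called higher, among them Ahnak at 0.11, Fras1 at 0.59, Golgb1 at 0.49, Mdn1 at 0.44, Vps13b at 0.41, Prkdc at 0.39 and Fat2 at 1.504 on the log2 scale. Without wortmannin library 2, 7 more were called, among them Ahnak at 0.11 and Lrp2 at 0.83.

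The giants sit at the end of a gradation over coding length, but among themselves length did not order the changes. Transcripts from 1600 codons up to the 3200 of the giants rose in 26.5% and fell in 7.58% of 805 cases, with a median log2 fold change of 0.18. Those under 100 codons rose in 4.56% and fell in 36.9% of 856 cases. Depth differed too: the median summed count was 228 under 100 codons, 1431 from 1600 codons and 2603 from 3200 codons. Changes are easier to call at higher counts, and the part of depth in these percentages was not tested. Among the 53 one-per-group members, the Spearman correlation of the log2 fold change was 0.068 with coding length and -0.089 with level per 1000 codons. For the 48 of them with an annotated coding sequence it was 0.228 with GC content, 0.178 with GC at the third codon position and -0.019 with the number of coding exons, and 0.261 and 0.123 with the annotated lengths of the 5′ and 3′ UTR, some of which are incomplete. These correlations run across members that share the same 4 libraries, and they are given as descriptions. The 24 that rose and the 24 that did not pass had median GC contents of 51.1% and 50.2%, medians of 68 and 69 coding exons, and median annotated 5′ UTRs of 231 and 137.5 bases.

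**Figure D3:**
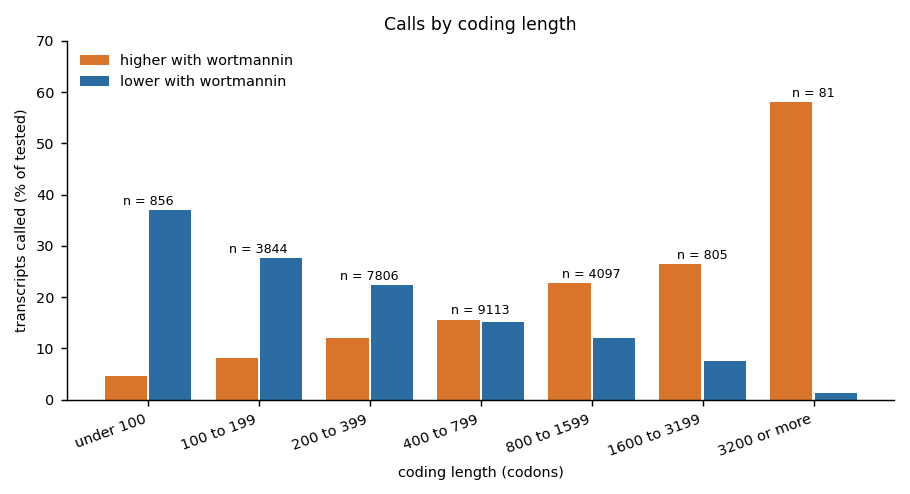
Percentage of tested transcripts called higher (orange) or lower (blue) with wortmannin, by coding length in codons, with the number tested above each pair of bars. The last pair covers all 81 tested transcripts of 3200 codons or more, repeats and left-out transcripts included, of which 58.0% were higher and 1.24% lower.

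One of the largest rises was on a gene of RNA surveillance. Smg1 (chr7:118131308-118243670, GRCm38, named at the looser share) encodes the PI3K-related kinase that phosphorylates UPF1 in nonsense-mediated mRNA decay. It went from 32.3 and 26.5 to 74.5 and 76.5 CPM, a log2 fold change of 1.37 ± 0.13 (SE; edgeR adjusted p = 4.57e-05). The groups lie far apart, and each of the 10 alternative settings kept the call, with edgeR or DESeq2 adjusted p up to 0.000449.

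Smg1 was the only one of the 5 PI3K-related kinases measured whose footprints rose; differences between these genes were not tested. Of the 6 kinases listed, 3 are members; 1 rose and 2 did not pass. Prkdc, the catalytic subunit of the DNA repair kinase DNA-PK, had 11.6 and 14.4 CPM in controls and 15.5 and 17.5 with wortmannin. Its log2 fold change was 0.32 ± 0.15 (edgeR adjusted p = 0.132), with both wortmannin libraries above both controls. Trrap, a pseudokinase scaffold of histone acetyltransferase complexes, had 70.2, 64.2, 65.0 and 63.1, with overlapping groups and a log2 fold change of -0.07 ± 0.11 (edgeR adjusted p = 0.661). Below 3200 codons, Atm was at 0.00 ± 0.12 (edgeR adjusted p = 0.996) and Mtor at 0.18 ± 0.13 (edgeR adjusted p = 0.303).

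Footprints rose on most giant linkers of the cytoskeleton, while Ahnak and dystrophin did not pass. Of 19 listed genes of cytoskeletal linkers and the sarcomere, 8 are members: 6 rose, 2 did not pass and 0 fell, with a median log2 fold change of 0.73. Beside this stand 26 of the 53 one-per-group members and 14.7% of all tested transcripts that rose, and 4 of the 6 did not pass without control library 2. Dst, a spectraplakin that ties intermediate filaments, actin and microtubules, went from 13.7 and 13.3 to 21.1 and 27.8 CPM on its longest transcript, of 7708 codons. Macf1, its paralogue, went from 59.1 and 55.3 to 77.2 and 99.8. The log2 fold changes were 0.86 ± 0.15 and 0.63 ± 0.13 (edgeR adjusted p = 0.00197 and 0.00577), and in both genes wortmannin library 2 was the highest. Utrn, which links actin to the dystroglycan complex, went from 35.1 and 35.8 to 53.0 and 72.5, a log2 fold change of 0.82 ± 0.15 (edgeR adjusted p = 0.00221). Dmd, the muscle counterpart of Utrn, was low at 3.90, 3.31, 4.04 and 3.21 and its groups overlapped (0.04 ± 0.24, edgeR adjusted p = 0.923).

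Plec, plectin, a linker of intermediate filaments to adhesion sites, names 9 members whose counts are nearly the same and so repeat a single measurement; 2 unnamed members of the same group have nearly those counts too. Its transcript with the most counts had 171 and 145 CPM in the controls and 198 and 258 with wortmannin, a log2 fold change of 0.53 ± 0.14 (edgeR adjusted p = 0.0174). The 2 rarest linkers rose as well, from few counts. Syne2, nesprin-2, had 102 counts in all, at 1.37, 1.19, 3.13 and 2.67 CPM (1.21 ± 0.28, edgeR adjusted p = 0.00964). Eppk1 had 74, at 0.976, 0.868, 1.69 and 2.54 (1.21 ± 0.34, edgeR adjusted p = 0.0216). It shares the group of Plec by its place in the file, so the one-per-group members set beside the linkers do not include it. Ahnak, by far the most abundant, had 4798 and 4768 CPM in controls and 5147 and 5171 with wortmannin. Its groups did not overlap, but the log2 fold change of 0.11 ± 0.10 was small and did not pass (edgeR adjusted p = 0.444). Among the linkers, Macf1, Plec, Syne2 and Eppk1 did not pass without control library 2 (edgeR adjusted p = 0.0869, 0.257, 0.131 and 0.234), and Eppk1 did not without control library 1 (0.117) or wortmannin library 2 (0.183) or with thinned counts (0.191, at 0.78). Plec was at 0.33 without wortmannin library 2. With DESeq2, Syne2 and Eppk1 did not pass (0.0921 and 0.162).

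For 3 linker genes a long and a short transcript were both members, and the difference of their counts gives the footprints in the exons that only the longer one holds, if footprints common to both were counted in each. That this holds only roughly is seen in Kmt2a, where a form lies wholly inside another that is 3 codons longer and the differences were 0, 1, -2 and -1 counts. In Macf1 the 5319-codon form lies wholly inside the 7346-codon form. Its level was 10.2 and 9.58 CPM per 1000 codons in controls and 13.2 and 17.6 with wortmannin. The 2027 codons that the longer form adds held 2.37, 2.12, 3.47 and 3.10, from 47 to 134 counts a library. So the added exons were occupied at a lower level than the shared ones in all 4 libraries. In Dst the form of 5370 codons stood at 1.97, 2.07, 3.15 and 4.28, and the added 2368.3 codons at 1.32, 0.923, 1.76 and 2.03. That shorter form has 91 bases of its own (99.4% lies inside the longer one), so its difference is less exact. Plec behaved otherwise: its 305 added codons held 32.4, 31.2, 46.1 and 52.6, close to the 36.7, 30.9, 41.9 and 55.1 of the shorter form. In all 3 genes both the shorter form and the added part were higher in both wortmannin libraries than in either control, so the higher footprint level was seen in each. These differences of counts were not tested.

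**Figure D4:**
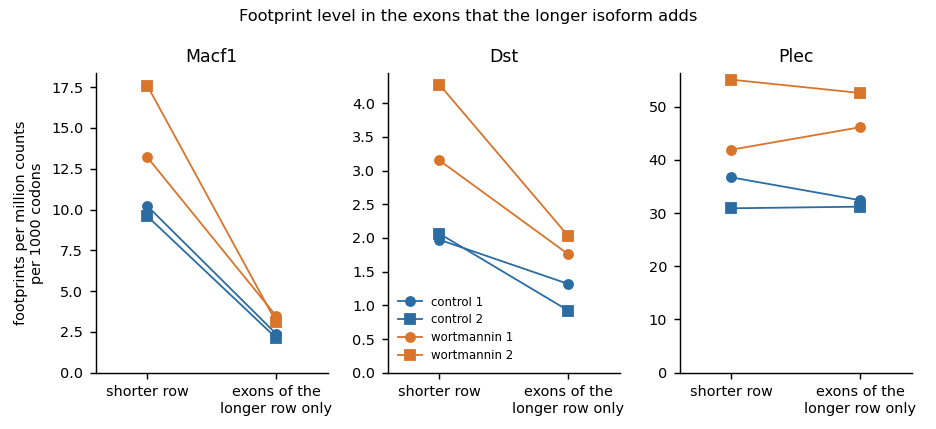
CPM per 1000 codons (linear axes from 0) of the shorter transcript and of the exons that only the longer transcript holds, for Macf1, Dst and Plec; each line is 1 library, blue for control and orange for wortmannin. The added exons of Macf1 and Dst lie below the shorter form in every library, and those of Plec lie near it.

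Receptors and cadherins of the cell surface showed 4 rises among 7 members of 21 listed genes, 0 falls and 3 that did not pass, with a median log2 fold change of 0.63. Of the one-per-group members 49.1% rose, and of all tested transcripts 14.7% rose and 19% fell. Lrp1 (chr10:127538161-127621148) went from 1598 and 1526 to 2336 and 2493 CPM, a log2 fold change of 0.63 ± 0.10 (edgeR adjusted p = 0.00158). With the second-highest level of all giants, it made the largest absolute gain among the members that rose. Pkd1, polycystin-1, a receptor-like protein of primary cilia, went from 121 and 112 to 182 and 181, a log2 fold change of 0.64 ± 0.10 (edgeR adjusted p = 0.00136). In both genes the libraries of a group lay close together and the groups far apart. Fat1, which restrains growth and guides cell migration, had 919 and 963 in controls and 1210 and 1542 with wortmannin (0.55 ± 0.13, edgeR adjusted p = 0.00937). Dchs1, the ligand of the Fat4 cadherin, went from 11.1 and 12.3 to 16.2 and 19.2 (0.59 ± 0.14, edgeR adjusted p = 0.0114).

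The surface proteins that did not pass were scarce, and their wortmannin libraries disagreed. Cdh23, a cadherin known from the tip links of hair cells, had 3.71 and 2.67 CPM in controls but 3.26 and 9.48 with wortmannin (1.05 ± 0.39, edgeR adjusted p = 0.0615). Fat2 had 1.30, 0.611, 0.781 and 2.40 (edgeR adjusted p = 0.238). Lrp2, megalin, had 2.28, 2.83, 4.69 and 2.67 (0.49 ± 0.29, edgeR adjusted p = 0.22). In each of the 3 genes the groups overlapped, and 1 wortmannin library set the value: Cdh23 was at 0.11 without wortmannin library 2 and at 1.65 without wortmannin library 1. Without control library 2, Lrp1, Pkd1, Fat1 and Dchs1 did not pass (edgeR adjusted p = 0.0783, 0.0819, 0.0864 and 0.0666); without control library 1, Fat1 and Dchs1 did not (0.122 and 0.149). Fat1 was at 0.36 without wortmannin library 2. Cdh23 passed without control library 1 (0.00235), without wortmannin library 1 (3.33e-11, with the spread of the controls alone), with the replicate number as a block (0.0404) and with no low-count filter, and Dchs1 did not with DESeq2 (0.0522).

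Matrix proteins were divided, as were the giants at 1 per group, of which 49.1% rose. Of 23 listed genes 6 are members: 2 rose, 4 did not pass and 0 fell, with a median log2 fold change of 0.33. Among all tested transcripts 14.7% rose and 19% fell. Col6a3, which forms the beaded filaments of collagen VI around fibroblasts, had 705 and 663 CPM in controls and 878 and 1351 with wortmannin. The rise was 0.70 ± 0.17 (edgeR adjusted p = 0.0118), with wide spread between the wortmannin libraries: it was 0.36 without wortmannin library 2 and 0.98 without wortmannin library 1. Hmcn1, hemicentin-1, which connects neighbouring basement membranes, went from 107 and 104 to 153 and 155 (0.55 ± 0.10, edgeR adjusted p = 0.00275), with hardly any spread. Fras1, a basement membrane protein, had 72.2, 73.7, 77.2 and 110, where 1 wortmannin library stayed close to the controls (0.36 ± 0.15, edgeR adjusted p = 0.0973). Svep1 had 664 and 668 in controls and 905 and 729 with wortmannin (0.29 ± 0.12, edgeR adjusted p = 0.0886).

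Hspg2 and Lama5, both of the basement membrane, showed no called change. Hspg2 had 1195 and 1198 CPM in controls and 1394 and 1144 with wortmannin, so the wortmannin libraries lay on either side of the controls (0.09 ± 0.12, edgeR adjusted p = 0.611). Lama5, a laminin chain, had 83.4 and 71.6 in controls and 66.8 and 74.0 with wortmannin, which overlap (-0.14 ± 0.12, edgeR adjusted p = 0.413). Hmcn1 did not pass without control library 1 (edgeR adjusted p = 0.0836) or control library 2 (0.127). Svep1 passed without either wortmannin library, at 0.13 and 0.44, as did Hspg2 without wortmannin library 2, at 0.22.

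Ubiquitin enzymes rose about as often as the giants at 1 per group. Of 9 listed genes 6 are members: 3 rose, 3 did not pass and 0 fell, with a median log2 fold change of 0.42. Beside this, 49.1% of the one-per-group members rose, and 14.7% of all tested transcripts rose and 19% fell. Herc1, a HECT-domain ubiquitin ligase, went from 24.5 and 22.3 to 34.5 and 42.3 CPM (0.72 ± 0.13, edgeR adjusted p = 0.00255). Huwe1, a HECT ligase with p53 and Myc among its substrates, went from 78.4 and 74.6 to 97.4 and 126 (0.55 ± 0.13, edgeR adjusted p = 0.011). Hectd4, a relative of these ligases, went from 31.5 and 28.0 to 38.8 and 47.8 (0.55 ± 0.13, edgeR adjusted p = 0.0109). In each of the 3 genes the groups did not overlap and wortmannin library 2 was highest.

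The remaining ubiquitin enzymes did not pass, and 1 of them lay lower in both treated libraries. Herc2, a ligase of the DNA damage response, had 66.7, 59.0, 72.2 and 81.5 CPM (0.29 ± 0.12, edgeR adjusted p = 0.0823). Ubr4, which recognises N-terminal degradation signals, had 121, 116, 127 and 123 (0.08 ± 0.10, edgeR adjusted p = 0.57). Usp34, which removes ubiquitin rather than adding it, had 35.1 and 37.6 in controls and 29.4 and 31.3 with wortmannin. Its log2 fold change of -0.26 ± 0.11 was the lowest of the members and did not pass (edgeR adjusted p = 0.102), though it did without wortmannin library 2 (0.017, at -0.31). Without control library 2, Herc1, Huwe1 and Hectd4 did not pass (edgeR adjusted p = 0.0526, 0.145 and 0.202), and without control library 1, Huwe1 and Hectd4 did not (0.0764 and 0.0502). Huwe1 was at 0.35 without wortmannin library 2. Herc2 passed without either wortmannin library, at 0.39 and 0.21.

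Chromatin, transcription and DNA repair factors showed some of the clearest rises beside several flat genes. Of 17 listed genes 8 are members, Smg1, Prkdc and Trrap included. Of these 3 rose, 0 fell and 5 did not pass, with a median log2 fold change of 0.34. Among the 3 is Smg1, described above as a gene of RNA surveillance. The share that rose was 49.1% of the one-per-group members and 14.7% of all tested transcripts, of which 19% fell. Zfhx3, a zinc-finger homeobox transcription factor that is prominent in the circadian pacemaker of the brain, went from 58.0 and 53.3 to 89.9 and 118 CPM (0.90 ± 0.14, edgeR adjusted p = 0.000994). Kmt2d (chr15:98831669-98871204) went from 27.8 and 28.4 to 45.6 and 46.2 (0.71 ± 0.11, edgeR adjusted p = 0.000949). The libraries of a group differ little there and the groups are far apart. Its relatives did not pass: Kmt2a had 32.8, 32.2, 38.9 and 39.3 (0.27 ± 0.11, edgeR adjusted p = 0.0833) and Kmt2c 30.7, 28.6, 25.8 and 28.1 (-0.14 ± 0.12, edgeR adjusted p = 0.403). The differences between these 3 genes were not tested. Brca2, a factor of homologous recombination, was low at 3.12, 2.31, 2.87 and 3.87 and its groups overlapped (0.36 ± 0.28, edgeR adjusted p = 0.341). Srcap (chr7:127511983-127561219), the ATPase that exchanges histone H2A.Z into nucleosomes, stands on no list and went from 19.1 and 19.4 to 30.9 and 38.5 (0.85 ± 0.13, edgeR adjusted p = 0.00107). Kmt2a passed without either wortmannin library, at 0.28 and 0.26.

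Genes of membrane traffic, lipid transport and the Golgi gave 4 rises among 7 members of 15 listed genes, 0 falls and 3 that did not pass, with a median of 0.40. For comparison, 49.1% of the one-per-group members rose, and 14.7% of all tested transcripts rose and 19% fell. Wdfy3, an adaptor for the autophagy of protein aggregates, went from 40.8 and 39.1 to 57.6 and 59.8 CPM (0.56 ± 0.11, edgeR adjusted p = 0.00348). Akap9, which anchors protein kinase A at the Golgi and centrosome, went from 29.98 and 26.8 to 36.2 and 40.3 (0.44 ± 0.12, edgeR adjusted p = 0.0198). 4932438A13Rik, a bridge-like lipid transfer protein, went from 22.4 and 25.1 to 28.9 and 33.9 (0.40 ± 0.13, edgeR adjusted p = 0.0375). These 3 rises were small, and the groups did not overlap.

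Others of the traffic list did not pass. Golgb1, the Golgi tether giantin, had 63.0, 58.5, 67.9 and 85.1 CPM (0.33 ± 0.13, edgeR adjusted p = 0.0709), and it passed with TMM scaling. Vps13b, a lipid transfer protein of the Golgi, had 32.3, 31.8, 34.3 and 42.6 (0.26 ± 0.13, edgeR adjusted p = 0.141). Lyst, which regulates lysosome size, had 8.39, 7.81, 7.68 and 9.08, with overlapping groups (0.06 ± 0.16, edgeR adjusted p = 0.816). Without control library 1, Wdfy3, Akap9 and 4932438A13Rik did not pass (edgeR adjusted p = 0.0735, 0.127 and 0.387), nor did they without control library 2 (0.135, 0.359 and 0.183). 4932438A13Rik also failed with DESeq2 (0.133), thinned counts (0.17), the replicate block (0.0518) and without wortmannin library 2 (0.0682), and Akap9 with DESeq2 (0.0738).

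Motors and cilium proteins were few. Of 17 listed dynein genes 2 are members; the others that had a named transcript fell below the count minimum. Dync1h1 carries cargo along microtubules in all cells and had 459, 436, 441 and 485 CPM, with overlapping groups (0.05 ± 0.11, edgeR adjusted p = 0.744). Dync2h1, the motor of retrograde transport in cilia, went from 6.96 and 6.49 to 9.12 and 11.1 (0.59 ± 0.17, edgeR adjusted p = 0.0208). Cplane1, a protein of cilium assembly that stands on no list, went from 9.76 and 10.3 to 12.4 and 15.8 (0.48 ± 0.15, edgeR adjusted p = 0.0362). Neither Dync2h1 nor Cplane1 passed without control library 1 (edgeR adjusted p = 0.0913 and 0.238), without control library 2 (0.215 and 0.193), without wortmannin library 2 (0.0742 and 0.192), with thinned counts (0.1 and 0.085) or with DESeq2 (0.131 and 0.163). Cplane1 was at 0.29 without wortmannin library 2.

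Of the 8 centrosome genes listed, Akap9, which rose, and Alms1, a centriole protein, are members; Alms1 had 3.252, 2.7001, 2.996 and 2.404 CPM, with overlapping groups (-0.10 ± 0.26, edgeR adjusted p = 0.803). Mdn1, the ATPase that strips assembly factors from the large ribosomal subunit, was the only member among 9 genes of ribosome assembly, chaperones and others. It had 22.3 and 19.7 in controls and 23.1 and 28.2 with wortmannin (0.29 ± 0.14, edgeR adjusted p = 0.13). Speg, a kinase of striated muscle outside the lists, had 6.76, 7.55, 6.64 and 8.15, with overlapping groups. No member belonged to the 9 ion channels or the 3 synapse genes listed.

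The wortmannin libraries did not rise equally. Library 2 was above library 1 for 62 of the 72 members (43 of 53 at 1 per group), against 55.6% of all tested transcripts, and the median ratio of library 2 to library 1 was 1.23 (1.17 at 1 per group). Control library 2 was above control library 1 for 19 of the 72. Col6a3, Zfhx3, Utrn and Dst were among the genes higher in wortmannin library 2, while Smg1, Kmt2d, Pkd1 and Hmcn1 had nearly equal values in both. Hspg2 and Svep1 were higher in wortmannin library 1. The larger spread of the treated pair moves with these results, and its part in them was not tested.

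**Figure D5:**
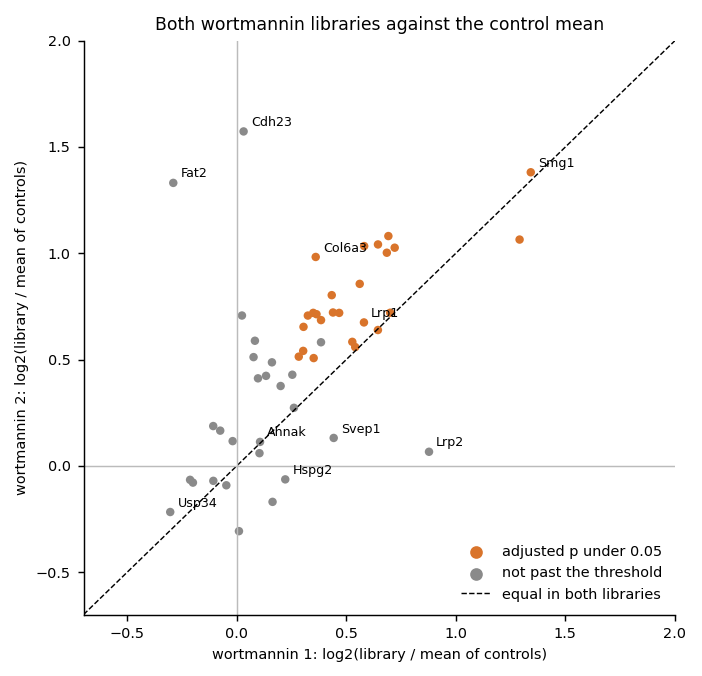
Log2 ratio to the mean of the controls in wortmannin library 1 (horizontal) and 2 (vertical) for 52 members at 1 per group; orange marks an edgeR adjusted p under 0.05, and the dashed line is equality of both libraries. Smg1 lies near the line, most other points lie above it, and Cdh23 and Fat2 are high in library 2 only.

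At the edges of the rule, the members with the fewest counts and the shortest length are close to transcripts outside it. Fat2, with 63 counts in all, is the member nearest the count minimum, and Lama3, a laminin chain with 53 counts, is the nearest outside. Cplane1 is the shortest member at 3205 codons, and the longest transcript outside has 3168 codons.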

How the data were processed

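Ribosome footprints were measured in 2 control and 2 wortmannin libraries. The authors deposited, per transcript, a coding length in codons (another quantity, not normalised) and a whole-number footprint count that shows no sign of normalisation. Per the submitters' processing notes, CASAVA 1.8, STAR 2.7.0 and mm10 were used; no source used here names the counting tool. edgeR 4.0.16 (R 4.3.3) was run on the deposited counts of all transcripts: offsets from each library's total, filterByExpr at a minimum count of 10, quasi-likelihood F test, Benjamini-Hochberg adjustment at 0.05, standard error as |log2 fold change| over the root of F. The script was tested on simulated counts. Alternatives were TMM factors, DESeq2 1.42.0, no filter, a replicate block, thinned counts, each library left out, other length and count minimums and, chosen after seeing the data, only transcripts with distinct counts. Python 3.11.15 handled names, sequences and figures.

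Values in every library are given for named members with an adjusted p under 0.05 and groups that do not overlap, the 5 with the highest level per codon, and members of the gene lists; the values of Speg were added after they had been seen. Neighbouring transcripts are at most 10 lines apart. Members, lists and rules were chosen with earlier results of these data known. Isoforms of a gene have similar counts; whether shared footprints were counted in each is not stated. Whether the replicate numbers pair the libraries could not be decided. With 2 libraries per group the check gives a single correlation of deviations, -0.0589, which shows no pairing but cannot exclude it. Some genes are counted in the totals but not reported or drawn singly here.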

Additional observations from a re-analysis of the deposited data

How the results depend on the processing

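Of 72 members, 13 to 56 rose and 0 to 1 fell with 1 library left out in turn, the fall being Usp34 without wortmannin library 2, and the median log2 fold change ranged from 0.34 to 0.70; among all transcripts 1611 to 5782 rose and 2618 to 6244 fell. The cause was not tested; the spread is then taken from fewer libraries. With the replicate number as a block 43 members rose and 0 fell (3457 and 4467 of all transcripts), but whether the numbers pair the libraries is not known. DESeq2 called 2114 transcripts higher and 2724 lower, and thinning to the smallest total left 2577 higher; members that rose were then 36 and 39. At 1 transcript per group 26 of 53 members rose, a smaller list. A minimum of 2800 codons gave 3 falls among 122 and keeping the 3 left-out transcripts gave 1 among 75. The members' mean share of counts, control and wortmannin, became 1.21% and 1.51% at 1 per group, 1.77% and 2.18% at 2800 codons, 1.22% and 1.53% at 3600 codons, and 1.55% and 2.01% over distinct transcripts. TMM, no filter, distinct transcripts and count minimums of 30 or 200 gave 41 to 44 rises and 0 falls.

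Signs turned only for changes that were not called. Thinned counts gave 0.0061 for uc008vom.2 and -0.0398 for Speg. With 1 library left out in turn, log2 fold changes ran from -0.0640 to 0.221 for Hspg2, from -0.0179 to 0.117 for Dync1h1, from -0.0615 to 0.180 for Lyst, from -0.130 to 0.165 for Speg, from -0.132 to 0.2002 for Dmd, from -0.266 to 0.0527 for Alms1 and from -0.110 to 1.504 for Fat2. Depth limits the scarce members: Fat2, Eppk1 and Syne2 rest on 63, 74 and 102 counts in all.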

Other observations

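The 57 giant transcripts below the count minimum name what these fibroblasts hardly occupied. The most counts among them were 53 for Lama3, 26 for Bsn, a scaffold of the presynaptic active zone, and 26 for Dnah9, an axonemal dynein. Ttn, the longest at 33458 codons, had 2 and 11 counts in the controls and 1 and 2 with wortmannin. Cubn, the vitamin B12 receptor of gut and kidney, had 20 counts, and Ryr3, a calcium release channel, had 19. In 20 of the 57 transcripts every library was listed at 0, among them those with the lengths of Reln, Apob and Abca13. These names rest on coding length, and the counts are too few to compare the groups.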
